A study of Mus musculus with 24 samples.

Results

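The nuclear genes of oxidative phosphorylation were followed in organoids of the mouse salivary gland. They were taken by symbol: every gene whose name begins with Nduf (complex I and its assembly factors), Uqcr (complex III), Cox4 to Cox8 (complex IV) or Atp5 (complex V, ATP synthase), together with Sdha to Sdhd (complex II). Pseudogenes were left out and at least 10 counts over the 24 libraries were required. Of 47643 genes, 104 matched by name, 7 of these were pseudogenes and 7 had too few counts, which left 90 members. There were 47 members of complex I, 8 of them assembly factors of the Ndufaf series, 4 of complex II, 8 of complex III, 14 of complex IV and 17 of complex V. The organoids were grown in Matrigel from C57BL/6 mice, from cells labelled as stem or progenitor cells of the gland, in a medium that held EGF, FGF2, insulin, dexamethasone and Y-27632 for every group. Glands were taken 14 or 90 days after irradiation (IR) or sham-IR, and organoids of passage 1 and of passage 2 were sequenced. This gave 8 groups of 3 libraries: IR and sham at day 14 in passage 1, at day 14 in passage 2, at day 90 in passage 1 and at day 90 in passage 2. The cells sequenced were the cultured progeny of the gland, not the irradiated tissue, and no radiation dose or age of the mice is given in the sources used. It is not stated whether the 3 libraries of a group stand for different animals or cultures. The p-values below therefore reflect library-to-library spread, part or all of which may be technical.

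Oxidative phosphorylation takes place in the inner mitochondrial membrane. Complex I takes electrons from NADH and complex II, which is also an enzyme of the citric acid cycle, takes them from succinate. Complex III passes them on to cytochrome c and complex IV from there to oxygen, while complexes I, III and IV move protons across the membrane, and complex V lets the protons return and makes ATP. Most subunits are encoded in the nucleus and imported, a few core subunits of complexes I, III, IV and V are encoded in mitochondrial DNA, and complex II is wholly nuclear. In the salivary gland the duct cells are known for their many mitochondria, which serve the transport of ions out of the saliva.

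The promoters of 4 members are shown because the comparisons below turn on these genes: Ndufa8, an accessory subunit of complex I, Cox5a, a subunit of complex IV, Uqcrh, the hinge protein of complex III next to cytochrome c1, and Ndufa4, which carries a complex I name but is known as a subunit of complex IV. Each is 250 bases long, ends at the base before the RefSeq transcript start and reads 5′ to 3′ on the strand of the gene, from RefSeq sequence of build GRCm38.p6, whereas the counts were made on GRCm39, per the submitters' processing notes. They are Ndufa8 (ENSMUSG00000026895) at chr2:36049339-36049588 on the minus strand, Cox5a (ENSMUSG00000000088) at chr9:57520982-57521231 on the plus strand, Uqcrh (ENSMUSG00000063882) at chr4:116075071-116075320 on the minus strand and Ndufa4 (ENSMUSG00000029632) at chr6:11907451-11907700 on the minus strand. Capitals mark the letters of the motifs searched, on either strand.
Ndufa8: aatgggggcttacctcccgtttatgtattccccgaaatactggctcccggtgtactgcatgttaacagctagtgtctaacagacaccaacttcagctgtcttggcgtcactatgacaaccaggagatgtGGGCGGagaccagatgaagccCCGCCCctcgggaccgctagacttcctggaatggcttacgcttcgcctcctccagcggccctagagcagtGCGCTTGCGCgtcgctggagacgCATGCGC
Cox5a: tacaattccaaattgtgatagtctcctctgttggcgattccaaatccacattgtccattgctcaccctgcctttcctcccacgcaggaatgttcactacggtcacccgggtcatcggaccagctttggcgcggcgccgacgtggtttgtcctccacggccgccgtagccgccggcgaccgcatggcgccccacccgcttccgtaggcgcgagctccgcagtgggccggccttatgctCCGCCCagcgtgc
Uqcrh: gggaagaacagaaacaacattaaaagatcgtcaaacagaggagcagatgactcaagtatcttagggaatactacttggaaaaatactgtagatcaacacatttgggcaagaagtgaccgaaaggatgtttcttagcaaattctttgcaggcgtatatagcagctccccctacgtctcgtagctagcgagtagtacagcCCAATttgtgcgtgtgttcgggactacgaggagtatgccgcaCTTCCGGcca
Ndufa4: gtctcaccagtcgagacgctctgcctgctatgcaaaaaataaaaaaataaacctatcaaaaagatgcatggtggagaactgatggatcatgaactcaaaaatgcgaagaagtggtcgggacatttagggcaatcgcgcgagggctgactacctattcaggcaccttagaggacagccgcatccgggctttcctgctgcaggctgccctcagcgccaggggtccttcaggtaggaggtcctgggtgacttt
The promoter of Ndufa8 held the letters of an NRF1 core, a shorter NRF1 site and SP1, that of Cox5a those of SP1, and that of Uqcrh those of an ETS site and CCAAT, while the stretch before Ndufa4 held none of those searched. These are matches of letters only, and say nothing about binding. Motifs were searched on both strands from 250 bases before to 50 bases after the start, and 74 members had such a window among 27025 promoters. NRF1, a factor known for its sites at genes of the respiratory chain, had its core letters in 24.3% of the members' windows and in 4.78% of all promoters. A shorter NRF1 site, GCGCATG, which can overlap the core, was in 20.3% against 4.04%. The YY1 letters ATGGCGG were in 14.9% of the members' windows against 4.19% of all. The ETS letters CCGGAAG were in 23% against 9.12%, and the ERR letters AAGGTCA in 10.8% against 4.66%. The box CCAAT was in 44.6% of members and 37.9% of all promoters. The SP1 letters GGGCGG, in 45.9% and 35.9%, were likewise closer to their share in promoters at large.

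Levels are given in CPM, the counts of a gene scaled to the depth of its library with TMM factors. The libraries were read from the 3′ end of each transcript, about 1 read per transcript whatever its length, so that CPM can be set side by side between genes. The most abundant member was Atp5a1, the alpha subunit of the catalytic head of ATP synthase, with a mean level of 543 CPM over the 24 libraries and a range of 442 to 678. Atp5g3, 1 of 3 genes for the c subunit of its proton-carrying ring, had a mean of 445 CPM. Cox6c of complex IV followed at 430 CPM and Uqcrh at 349 CPM. Within complex I the highest mean levels were those of the accessory subunits Ndufa6, at 167 CPM, and Ndufc1, at 144 CPM. In complex II the flavoprotein Sdha had 108 CPM and the iron-sulfur protein Sdhb 71.9 CPM, while the membrane anchors Sdhc and Sdhd had 71.6 and 6.31 CPM. Uqcrb, a subunit near the ubiquinone site of complex III, had 135 CPM, and Uqcr11, the least abundant of that complex, 45.4 CPM. The assembly factors, which build complex I but do not remain in it, had spread levels. Ndufaf4, at 76.3 CPM, lay above 23 of the 39 other members of complex I, whose median was 54.4 CPM. Ndufaf8, at 36.5 CPM, lay above 12 of them, and the other 6 factors, between 6.21 and 22.6 CPM, each above 3. Some levels are uncertain because of near-copies. For 25 members at least 1 other annotated transcript shared 75 or more bases at 95% identity within the last 250 bases of the member. They include Cox6c and Uqcrh with 1 such gene each, Uqcrb and Cox7c with 4 each, Atp5l with 13 and Ndufaf7 with 147, and reads could have been lost or split there.

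Where a subunit has a ubiquitous gene and a tissue-bound one, the ubiquitous gene had the higher level in each case below. Cox4i1 had 139 CPM, and Cox4i2, the lung form, had no count in any library. Cox6a1 had 176 CPM and the heart and muscle form Cox6a2 had 4 counts in all 24 libraries together. Cox8a had 53.5 CPM, against 0 counts for the muscle form Cox8b and 1 for the testis form Cox8c. Cox7b had 143 CPM and Cox7b2 no count. Cox7a2, the common form, had 142 CPM, its relative Cox7a2l had 228 CPM, and the heart and muscle form Cox7a1 had 1.03 CPM. Cox7a1 reached 3.83, 1.88 and 2.80 CPM in the IR libraries of day 14 in passage 1 and 1.02, 2.63 and 3.46 CPM in those of day 90 in passage 1, and was at 1.16 CPM or less in every other library. It had 48 counts in all and was below the filter of the test. Cox6b1 had 130 CPM and the testis form Cox6b2 1.29 CPM. Ndufa4 had 45.0 CPM and Ndufa4l2, a gene known to rise in low oxygen, 0.34 CPM from 19 counts. Of the c subunit genes, Atp5g1 had 36.6 CPM and Atp5g2 2.86 CPM. Their 3′ ends have near-copies, 3 for Atp5g1 and 2 for Atp5g2, so these levels are uncertain. An upper limit applies to the genes with no count: 3 counts over all libraries could have been missed, from counting error alone.

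A library held between 1151608 and 3189466 counts on genes (median 2091528.5), and 8868 to 32542 of them fell on members, or 0.64% to 1.08%. Between 11.8% and 29.0% of the counts lay on Gm42418, a gene model over ribosomal RNA, with 13.1% to 15.5% in the 3 sham libraries of day 90 in passage 2. The marker genes of the labelled cells were present: Epcam, Cdh1, Krt8, Krt18, Krt5, Krt14 and Trp63 had counts in every library. Markers of fibroblasts summed to at most 3.46 CPM with Col3a1 at 0 throughout, those of endothelium to at most 2.04 CPM, those of immune cells to at most 8.14 CPM and those of muscle to at most 4.17 CPM. Acinar markers varied widely, with sums of 29.8 to 1977 CPM in single libraries, and Pip alone had 10.4 to 1964 CPM. Myoepithelial markers summed to at most 19.4 CPM. In bulk RNA a different mix of cells and a different level per cell cannot be told apart.

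The members differed in how evenly they were expressed over the 24 libraries. The SD of the log2 level, taken as log2(CPM + 0.5), was 0.13 for Atp5a1, 0.15 for Ndufs1, a core subunit that carries iron-sulfur clusters, 0.15 for Sdha and 0.17 for Cox6c. It was 0.80 for Ndufa4, 0.63 for Atp5j, the coupling factor of the ATP synthase stalk, 0.59 for Cox8a and 0.55 for Ndufa1. Over the 75 members with a mean of 20 to 600 CPM the median SD was 0.25, and over the 5745 tested genes in that range it was 0.29. The uneven members were named after their values were seen, and much of their spread lay between libraries of the same group. Atp5j had 21.5, 55.6 and 82.8 CPM in the sham libraries of day 14 in passage 1 and 61.6, 36.3 and 106 CPM in the IR libraries of day 14 in passage 2. Cox8a had 31.6, 57.3 and 76.1 CPM and 57.1, 33 and 118 CPM in the same libraries. Both genes were low in replicate 1 of the former group and high in replicate 3 of the latter, and one axis held 45.3% of the variance of the members within groups. The libraries farthest from their group on that axis were replicate 1 of sham at day 14 in passage 1 and replicates 2 and 3 of IR at day 14 in passage 2. Some results are also given without these 3. The cause of this spread was not tested.

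**Figure D1:**
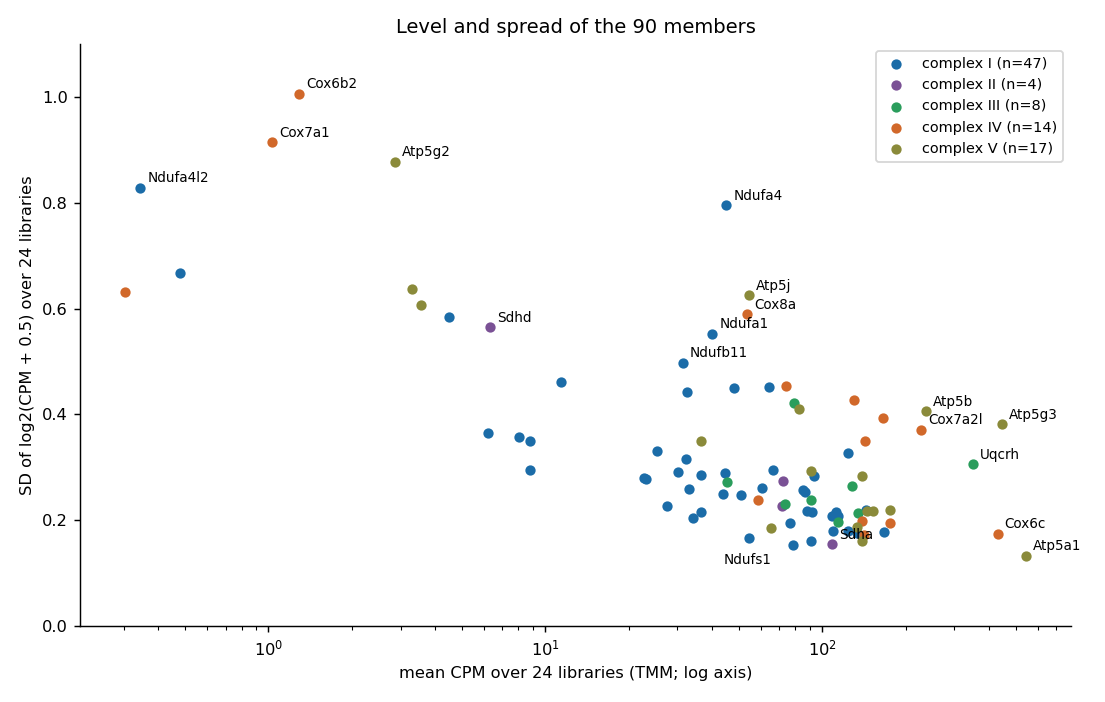
Mean level of each of the 90 members over 24 libraries (CPM, log axis) against the SD of log2(CPM + 0.5) over the same libraries, 1 point per gene, coloured by complex. Some members under 10 CPM have large SDs. Among the more abundant ones Ndufa4, at 45.0 CPM with an SD of 0.80, stands above Atp5a1, at 543 CPM with an SD of 0.13.

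The summed level of all members lay between 6915 and 9730 CPM in single libraries. By group it was 8187 ± 987 CPM (SD, n = 3 here and for each group) in sham and 8523 ± 298 in IR at day 14 in passage 1, and 8627 ± 101 and 8711 ± 886 at day 14 in passage 2. At day 90 it was 8516 ± 521 and 8583 ± 146 in passage 1, and 7338 ± 431 and 7286 ± 546 in passage 2. Sham and IR overlapped in every pair, and the 2 groups of day 90 in passage 2 were the lowest of the 8, sham and IR alike. Complexes I, III, IV and V each had their 2 lowest group means there. For complex IV the means were 1508 and 1528 CPM against 1734 to 1879.5 CPM in the other 6 groups, and for complex V 2108 and 2095 CPM against 2479 to 2628 CPM. Complex II, at 242 and 251 CPM, lay within the 244 to 279 CPM of the other groups or just below it.

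**Figure D2:**
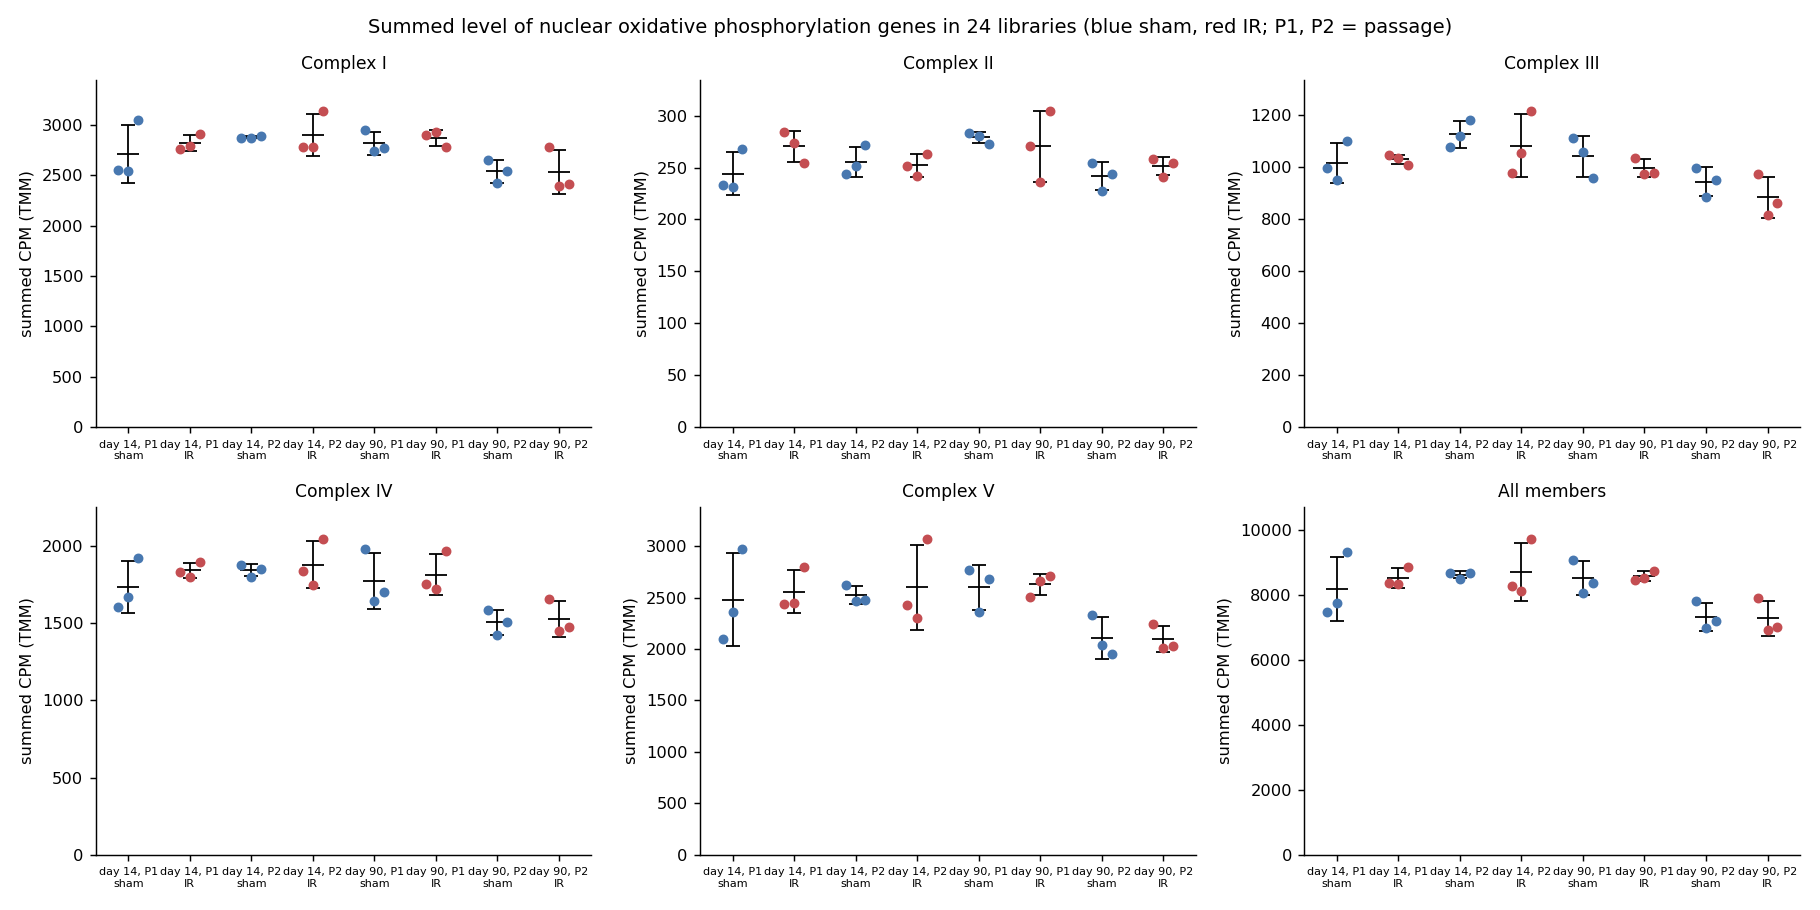
Summed CPM of the members of each complex and of all 90 members in each library (points, blue sham and red IR), with group mean and SD (black, n = 3), over the 8 groups. Sham and IR points overlap, and the day 90 passage 2 groups, at 7338 and 7286 CPM for all members, lie lowest on this TMM scale.

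Irradiation of the gland left no member past the threshold in any of the 4 strata of day and passage. The test was the quasi-likelihood test of edgeR at an adjusted p under 0.05 over all genes, and 85 members passed its filter on low counts. Called were 0 of 85 at day 14 in passage 1, where 0.341% of all 10563 tested genes were called, 0 of 85 at day 14 in passage 2, with 0.0189% of all genes, 0 of 85 at day 90 in passage 1, with 0.0473%, and 0 of 85 at day 90 in passage 2, with 4.91%, of which 2.96% higher and 1.95% lower. At an unadjusted p under 0.05 there were 3, 0, 9 and 10 members, against 11.0%, 6.72%, 12.7% and 18.3% of all genes, and DESeq2 called 0, 0, 1 and 0. The median log2 fold change of the members was 0.06, 0.04, 0.02 and 0.07, beside -0.01, 0.01, 0.00 and 0.01 for all tested genes. The 95% interval of the log2 fold change stayed within 1 in either direction for 76, 72, 70 and 72 of the 85, so a change of 2-fold lies outside the interval for most members and inside it for the rest. By complex the medians were between -0.08, for complex II at day 90 in passage 2, and 0.15, for complex III at day 90 in passage 1 and complex IV at day 90 in passage 2.

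**Figure D3:**
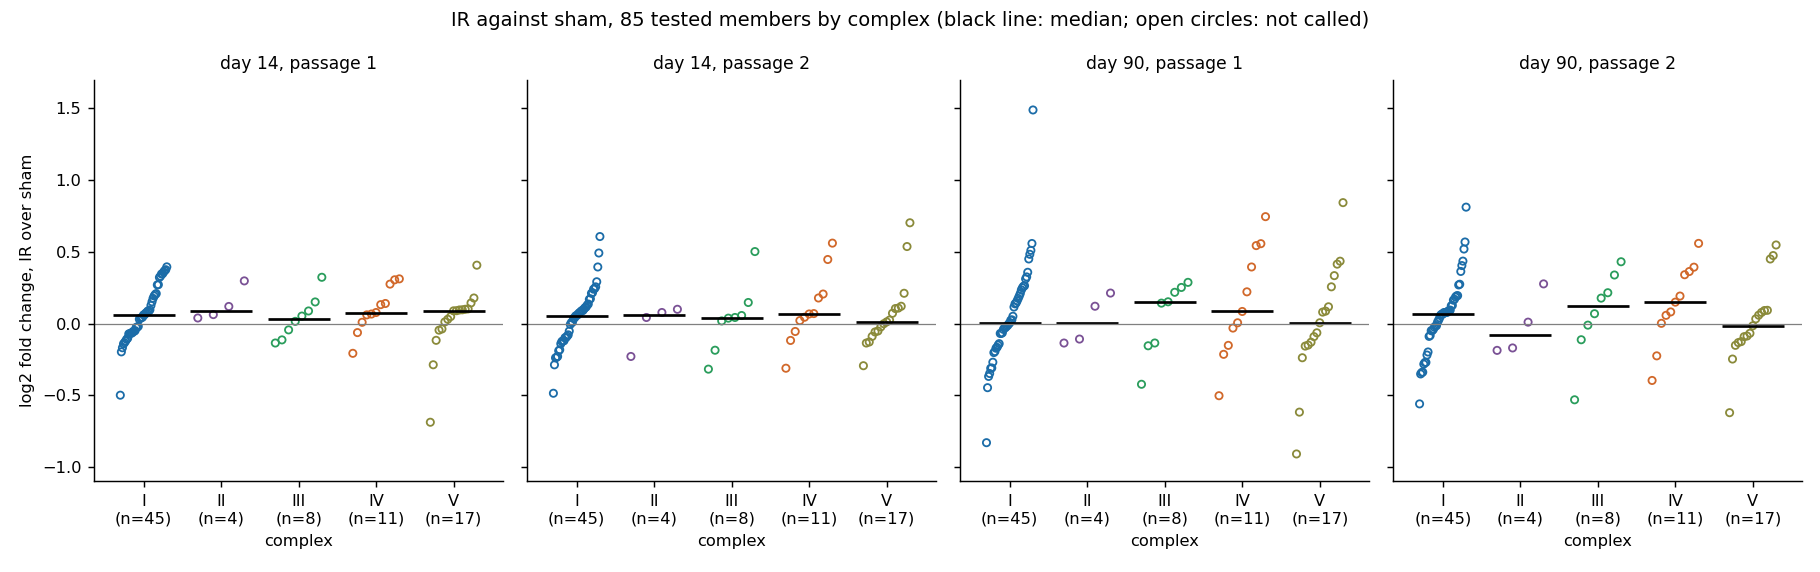
Log2 fold change of IR over sham for the 85 tested members, by complex, in the 4 combinations of day and passage; open circles are members not called, and black lines are medians. No member was called, and Ndufa4 at day 90 in passage 1 lies highest, at 1.49.

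Ndufa4 had the largest fitted difference of any member in these 4 comparisons. At day 90 in passage 1 it had 35.9, 28.7 and 26 CPM in sham and 68.5, 74.3 and 110 CPM in IR libraries, without overlap. Its log2 fold change was 1.49 (SE 0.40) with an adjusted p of 0.126, so it was not called there. DESeq2 and a fit to those 2 groups alone did call it, and the shares of all genes called in those fits are not given here. The main fit, which did not call it, called 0.0284% of all genes higher. At day 90 in passage 2 it had 22.4, 25.1 and 9.35 CPM in sham and 17.5, 48.2 and 36.3 CPM in IR, and at day 14 its sham and IR libraries overlapped in both passages. All libraries of IR above all of sham, or below, were seen for 6 and 0 members at day 14 in passage 1 (8.83% and 8.40% of all genes), for 2 and 2 at day 14 in passage 2 (6.06% and 5.49%), for 7 and 8 at day 90 in passage 1 (9.14% and 10.4%) and for 7 and 2 at day 90 in passage 2 (10.9% and 9.64%).

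At day 90 in passage 2, replicate 1 of the IR libraries lay apart from the other 2. Cox5a had 119, 103 and 80.0 CPM in sham and 108, 169 and 169 CPM in IR, so that replicate 1 of IR lay among the sham values. Uqcrh had 417, 387 and 445 CPM in sham and 401, 213 and 248 CPM in IR, with the same library on the sham side. That library also had 13.5% of its counts on Gm42418, where the other 2 IR libraries had 24.3% and 23%, and 4748 CPM of basal markers against 1314 and 1914 CPM. Its part in the result was not tested. Without it 9 members were called, 2 higher and 7 lower, beside 11.1% of all genes in the same fit: Cox5a (log2 fold change 0.75) and Uqcrq (0.58) were higher, and Uqcrh (-0.85), Ndufv3 (-0.70), Atp5k (-0.70), Ndufa5 (-0.69), Ndufaf8 (-0.68), Ndufc1 (-0.50) and Cox6c (-0.47) were lower.

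The mean of the 4 irradiation effects, which uses all 24 libraries, reached the threshold for 3 of 85 members, 3.53%, beside 11.0% of all genes, of which 6.09% higher and 4.96% lower. Ndufa8 and Cox5a rose and Uqcrh fell. With total counts in place of TMM neither of the former was called (adjusted p 0.107 for Ndufa8 and 0.129 for Cox5a). In that fit 2 members were called, both lower, Uqcrh and Cox7a2l, beside 10.1% of all genes, with a median over members of 0.00. Ndufa8 had 17.5, 34.7 and 39.9 CPM in sham and 31.6, 47.0 and 44.8 CPM in IR at day 14 in passage 1, and 35.1, 41.2 and 27.4 against 34.2, 35.0 and 45.8 CPM in passage 2. At day 90 it had 33.7, 20.0 and 29.4 against 35.3, 38.8 and 43.7 CPM in passage 1, and 21.2, 16.6 and 19.4 against 23.4, 33.7 and 28.3 CPM in passage 2. Only at day 90 did every IR library lie above every sham library, in both passages. Its mean log2 fold change was 0.41 (SE 0.13) with an adjusted p of 0.0397.

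Cox5a rose by a mean log2 fold change of 0.33 (SE 0.11, adjusted p 0.0484). Its levels at day 14 in passage 1 were 118, 185 and 209 CPM in sham and 200, 197 and 236 CPM in IR, and in passage 2 they were 173, 165 and 146 CPM against 167, 149 and 189 CPM. At day 90 in passage 1 they were 192, 128 and 152 against 185, 185 and 250 CPM. Sham and IR libraries overlapped in each of the 4 strata. Uqcrh fell by 0.35 on the log2 scale (SE 0.10, adjusted p 0.0314). It had 418, 292 and 304 CPM in sham and 332, 308 and 295 CPM in IR at day 14 in passage 1, 326, 446 and 491 against 316, 361 and 337 CPM at day 14 in passage 2, and 364, 465 and 344 against 341, 285 and 247 CPM at day 90 in passage 1. All 3 IR libraries lay below all 3 sham libraries in the last of these strata and overlapped with them in the others.

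Short of the threshold were Ndufa4, with a mean log2 fold change of 0.61 (SE 0.20, adjusted p 0.0508), and Cox7a2l, with -0.35 (SE 0.12, adjusted p 0.0543). In sign, 22 of 85 members were above 0 in all 4 strata and 8 below, 25.9% and 9.41%, beside 15.5% and 14.6% of all genes. Among the 22 were 7 tested members of complex IV: Cox4i1, Cox5a, Cox6a1, Cox6b1, Cox7b, Cox7c and Cox8a. Among the 8 were Atp5a1, Uqcrc1, Uqcrh and Cox7a2l. The number of calls depended on single libraries. Without replicate 1 of IR at day 90 in passage 2, 11 members were called, 4 higher and 7 lower, beside 16.4% of all genes in the same fit. None was called without replicate 1 of sham or replicate 2 or 3 of IR at day 14 in passage 1. The same held without replicate 3 of sham at day 14 in passage 2. It held too without replicate 2 of sham or 2 or 3 of IR at day 90 in passage 1, or replicate 3 of sham or 2 or 3 of IR at day 90 in passage 2. Without the 3 libraries farthest from their groups, which leaves 1 IR library at day 14 in passage 2, the members' median was 0.02. With all libraries it was 0.05. There were 6 calls without replicate 3 of sham at day 14 in passage 1 or replicate 2 of IR at day 14 in passage 2, 5 without replicate 1 of sham at day 14 in passage 2 or replicate 1 of IR at day 90 in passage 1, and 1 without replicate 2 of sham or 1 or 3 of IR at day 14 in passage 2.

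**Figure D4:**
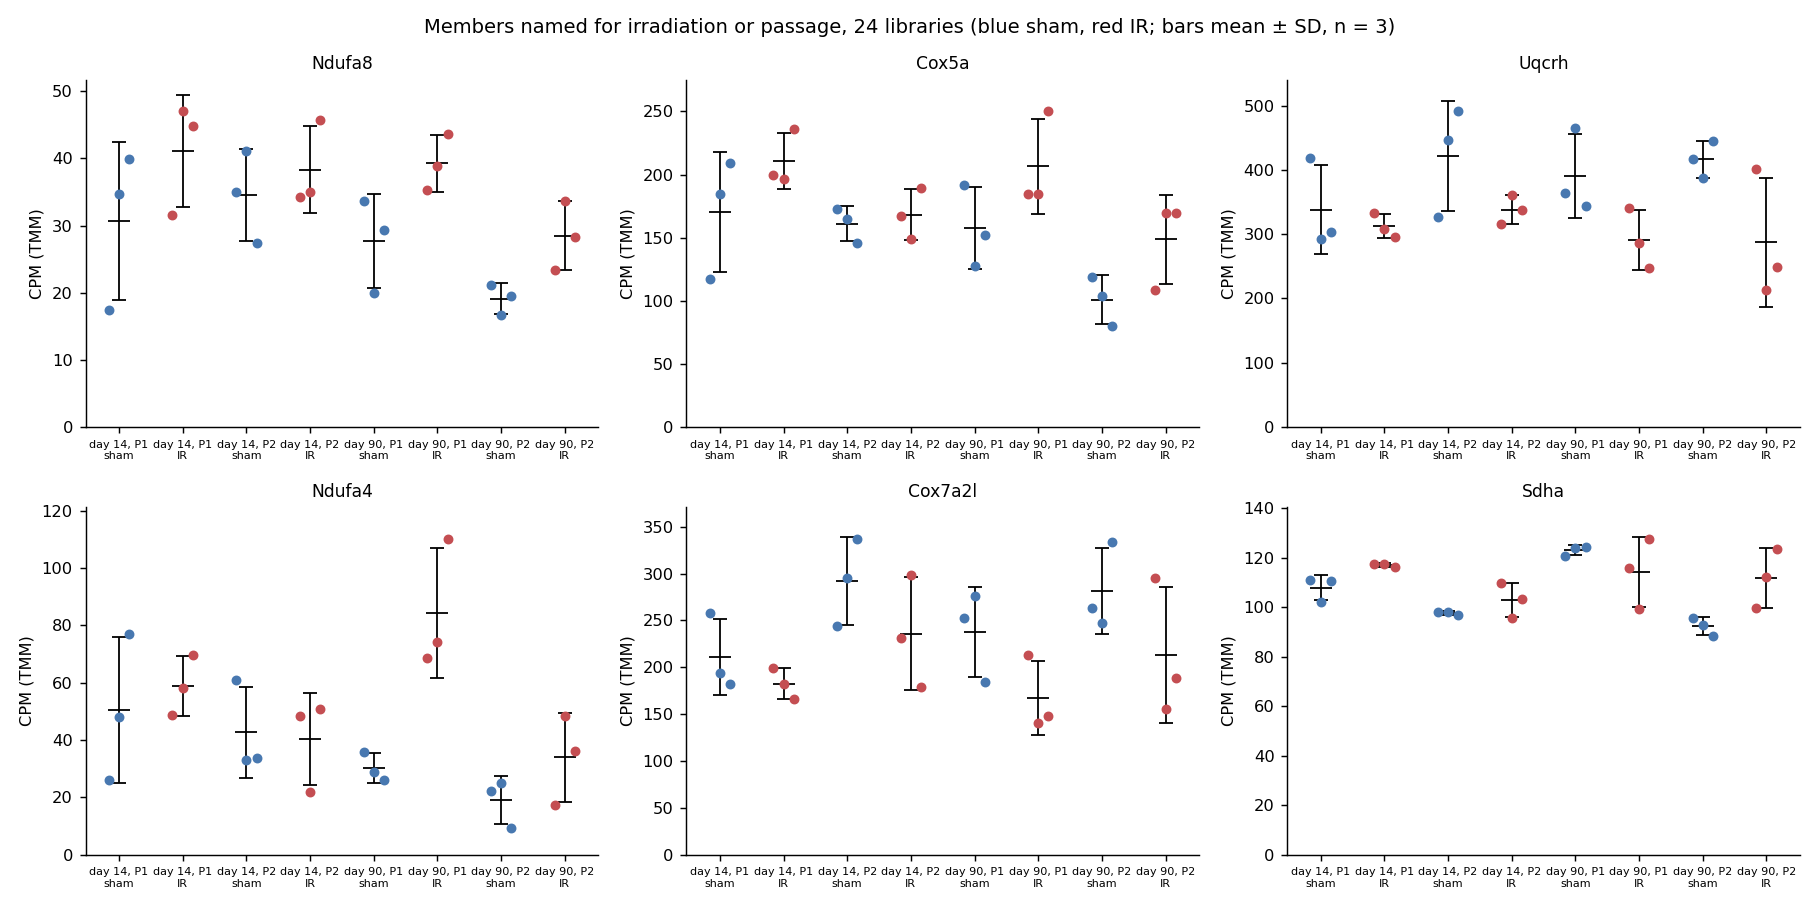
CPM of 6 members in each of the 24 libraries (points, blue sham and red IR), with group mean and SD (black, n = 3). Ndufa4 in passage 1 at day 90 has its IR libraries at 68.5 to 110 CPM above the sham libraries at 26 to 35.9 CPM. IR libraries also lie above sham for Ndufa8 at day 90 in both passages. For Sdha they do so at day 14 in passage 1 and at day 90 in passage 2. Uqcrh lies below sham at day 90 in passage 1, and Cox5a and Cox7a2l overlap in every stratum.

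Between passages, 3 of 85 members fell on average over the 4 pairs of groups and none passed the threshold upward, though Cox7a2l lay just short of it, beside 11.7% of all genes called, 5.26% higher and 6.42% lower. Cox5a was lower in passage 2 by 0.38 on the log2 scale, from the values above (SE 0.11, adjusted p 0.0239). Ndufa4 fell by 0.69 (SE 0.20, adjusted p 0.0290): at day 14 it had 26.2, 48.1 and 77.2 CPM in sham and 48.8, 58.3 and 69.5 CPM in IR in passage 1, and 61.1, 32.9 and 33.9 CPM and 48.5, 21.8 and 50.8 CPM in passage 2. The passages overlapped at day 14, and at day 90 the passage 1 libraries had 26 to 110 CPM and the passage 2 libraries 9.35 to 48.2 CPM. Sdha, the smallest of these changes, fell by 0.19 on the log2 scale (SE 0.06, adjusted p 0.0349). In the sham groups Sdha went from 111, 102 and 110 CPM in passage 1 to 97.9, 98.2 and 96.9 CPM in passage 2 at day 14, and from 121, 124 and 124 to 95.4, 92.9 and 88.2 CPM at day 90, without overlap at either day. In the IR groups it overlapped at day 90 only, with 116, 99.3 and 127 CPM against 99.5, 112 and 124 CPM. Cox7a2l was at 0.36 (SE 0.12, adjusted p 0.0507), above 0 but not called. It was called higher by DESeq2, with total counts or median-of-ratios factors, under each other filter on low counts, with the replicate block and with ribosomal RNA genes left out. With total counts 1 member was called higher, Cox7a2l, and 1 lower, Ndufa4, beside 10.7% of all genes called. Of the 85 members 62 had a fitted value below 0, and the median log2 fold change was -0.09 beside 0.00 for all genes. Complex IV had 10 of 11 below 0, with a median of -0.19. Leaving out 1 library gave 0 to 8 calls, with 0 without replicate 3 of sham at day 14 in passage 1 and 8 without replicate 2 of sham at day 90 in passage 1. It gave 1 call without replicate 2 or 3 of sham at day 14 in passage 2, replicate 3 of IR at day 90 in passage 1 or replicate 3 of sham at day 90 in passage 2, and 5 to 7 without replicate 1 of sham at day 14 in passage 1, replicate 3 of IR at day 14 in passage 2 or replicate 1 of IR at day 90 in passage 1.

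On the TMM scale several subunits had lower levels in organoids from glands of day 90 than of day 14. Day cannot be told apart here from the age of the mice at harvest or from a batch, neither of which is given. Averaged over passage and treatment, 6 of 85 members, 7.06%, fell from day 14 to day 90 and none rose, beside 4.79% of all genes called, 2.43% higher and 2.36% lower. At an unadjusted p under 0.05 there were 30 members, 35.3%, beside 20.6% of all genes. Those that fell were Ndufb2 (log2 fold change -0.37, SE 0.08, adjusted p 0.0139), Ndufb6 (-0.37, SE 0.09, adjusted p 0.0187), Ndufc2 (-0.32, SE 0.09, adjusted p 0.0318) and Ndufa10 (-0.23, SE 0.06, adjusted p 0.0342) of complex I. Cox7b of complex IV (-0.40, SE 0.10, adjusted p 0.0232) and Atp5mpl, a small proteolipid of ATP synthase (-0.25, SE 0.07, adjusted p 0.0442), fell too. Ndufb2, Ndufb6 and Ndufc2 are accessory subunits of the membrane arm of complex I. By complex, 8 of 8 members of complex III and 11 of 11 of complex IV had fitted values below 0, with medians of -0.19 and -0.24. Complex V had 14 of 17 below 0 (median -0.17), complex I 28 of 45 (-0.07) and complex II 1 of 4 (0.04). These directions depend on the scaling. With total counts the median of all genes moved to 0.14, the members' median was 0.00, that is -0.14 relative to all genes beside -0.13 with TMM, and complex I turned to 0.07. In that fit 2 members, Ndufaf1 and Ndufaf4, were called higher and none lower, beside 13.3% of all genes called. Leaving out 1 library gave 12 calls without replicate 1 of sham at day 90 in passage 1, and 3 without replicate 3 of sham or of IR at day 14 in passage 1, replicate 2 of sham or 1 or 3 of IR at day 14 in passage 2, replicate 2 or 3 of sham or 1 of IR at day 90 in passage 1, or replicate 3 of sham at day 90 in passage 2. All of these calls were lower.

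Taken within each passage, a comparison added after the averaged values had been seen, the members were lower at day 90 in passage 2. In passage 1, 0 of 85 were called, beside 0.00947% of all genes, and 1 was at an unadjusted p under 0.05, beside 8.15% of all genes. DESeq2 called 0 as well, and the median was 0.03. In passage 2, 14 of 85 members, 16.5%, fell and none rose, beside 3.91% of all genes called and 1.80% called lower. At an unadjusted p under 0.05 there were 37, 43.5%, beside 21.5% of all genes, and the median log2 fold change was -0.28 beside -0.01 for all genes. All 6 libraries of day 90 lay below all 6 of day 14 for 14 members in passage 2, beside 0.994% of all genes, and for 0 in passage 1, beside 0.398%. Called were 7 members of complex I (Ndufb2, Ndufb9, Ndufb10, Ndufc2, Ndufa10, Ndufb6 and Ndufa8), 3 of complex IV (Cox5b, Cox7b and Cox4i1) and 4 of complex V (Atp5e, Atp5c1, Atp5mpl and Atp5b). No member of complexes II or III was called, although 7 of 8 in complex III were at an unadjusted p under 0.05. Fitted values were below 0 for 8 of 8 members of complex III, 11 of 11 of complex IV, 16 of 17 of complex V, 35 of 45 of complex I and 2 of 4 of complex II.

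Atp5e, the epsilon subunit in the central stalk of ATP synthase, was among these. In passage 2 it had 94.5, 97.6 and 99.4 CPM in sham and 99.9, 102 and 114 CPM in IR at day 14, and 70.7, 65.7 and 63.6 CPM in sham and 72.0, 71.5 and 67.4 CPM in IR at day 90. Sham and IR libraries were both lower at day 90, and the days did not overlap. Its log2 fold change was -0.57 (SE 0.11, adjusted p 0.00914). In passage 1 it had 78.0, 80.5 and 115 CPM and 84.7, 102 and 107 CPM at day 14, and 101, 70.4 and 97.1 CPM and 99.7, 122 and 116 CPM at day 90, with full overlap. Ndufb2 had 52.0, 54.1 and 47.2 CPM in sham and 44.5, 53.5 and 63.4 CPM in IR at day 14 in passage 2, and 37.3, 36.3 and 34.8 CPM and 37.9, 25.8 and 30.3 CPM at day 90. Its log2 fold change was -0.64 (SE 0.12, adjusted p 0.00485), and since 1 other gene shares its 3′ end its level is uncertain. Cox5b, a subunit on the matrix side of complex IV, had 65.6, 69.4 and 66.4 CPM in sham and 57.1, 55.5 and 72.1 CPM in IR at day 14 in passage 2, and 43.8, 48.1 and 43.4 CPM and 43.3, 43.2 and 54.5 CPM at day 90. Its log2 fold change was -0.49 (SE 0.11, adjusted p 0.0158). Ndufa10 had 124, 119 and 116 CPM and 132, 108 and 128 CPM at day 14, and 96.6, 91.1 and 86.4 CPM and 96.0, 94.0 and 95.7 CPM at day 90, so the 6 libraries of day 90 again lay below the 6 of day 14. Ndufa6, the most abundant subunit of complex I, overlapped between the days, with 121, 202 and 191 CPM in sham and 162, 170 and 201 CPM in IR at day 14 in passage 2, and 183, 183 and 195 CPM and 147, 167 and 148 CPM at day 90.

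**Figure D5:**
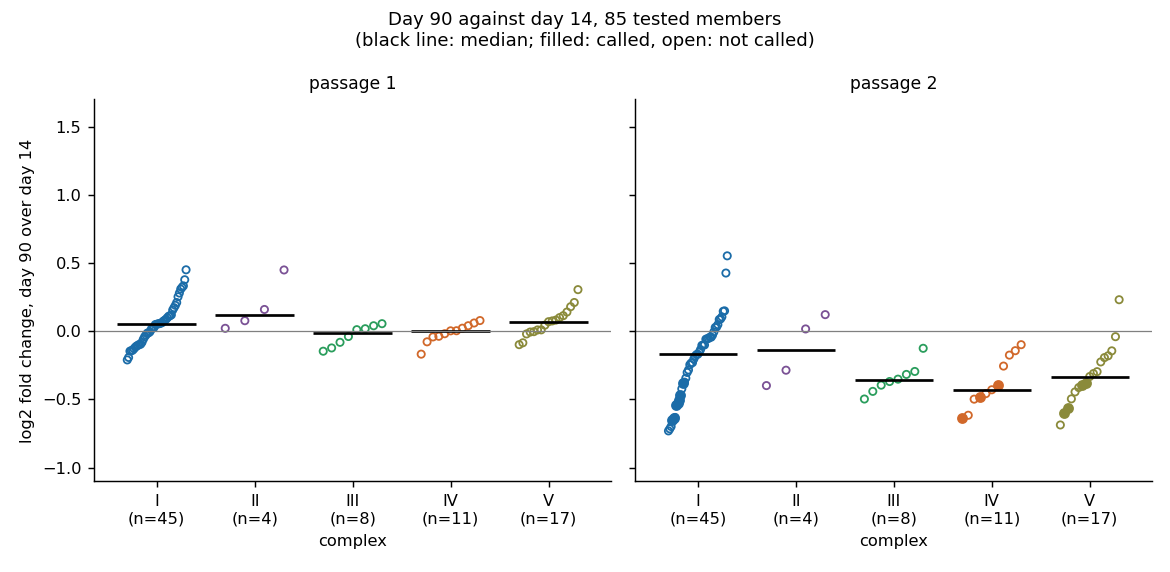
Log2 fold change of day 90 over day 14, averaged over sham and IR, for the 85 tested members by complex, in passage 1 (left) and passage 2 (right); filled circles were called, open circles were not, and black lines are medians. The member median is 0.03 in passage 1 and -0.28 in passage 2, where 14 members were called lower.

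Whether the day effect differed between passages was tested as an interaction, and no member was called, nor was any other gene (0.00% of 10563). The lowest adjusted p among members was 0.510, for Atp5e and Ndufb9, 19 members were at an unadjusted p under 0.05, beside 7.54% of all genes, and DESeq2 called 0. Fitted values were below 0 for 92.9% of members, with a median of -0.31 beside -0.01 for all genes. The count of 14 in passage 2 also depended on single libraries. It fell to 3 without replicate 3 of IR at day 14, to 5 without replicate 3 of sham at day 90, to 9 without replicate 2 of sham at day 14 and to 9 without replicate 2 of IR at day 90. A fit without the 3 libraries farthest from their groups leaves 1 IR library at day 14 in passage 2. A group of 1 library shows no spread, so calls are not given for that fit and the count of 14 is not checked by it. The members' median in it was -0.24, against -0.28 with all libraries. A fit to the compared groups alone gave 5 calls. With total counts, which move the median of all genes in passage 2 to 0.16, the members' median was -0.11. In that fit 1 member, Ndufb2, was called lower, beside 9.86% of all genes called.

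Other sets moved with this comparison, and their part in it was not tested. For day 90 against day 14 in passage 2, 2.11% of all genes were called higher and 1.80% lower. Of 80 tested cytosolic ribosomal protein genes 11 fell in passage 2 and none rose, with a median log2 fold change of -0.38, among them Rps15a (-0.49) and Rplp1 (-0.44). Of 73 mitochondrial ribosomal protein genes 1 fell, Mrpl20 (-0.67), with a median of -0.08. The share of counts on Gm42418 was 17.2% to 28.4% at day 14 and 13.1% to 24.3% at day 90 in passage 2. With that share as a covariate 6 members were called, all lower: Atp5e, Atp5mpl, Cox7b, Ndufb2, Ndufb6 and Ndufb9. The 4 basal markers (Krt5, Krt14, Krt15 and Trp63) summed to 7728 to 8864 CPM in sham and 4582 to 5902 CPM in IR at day 14 in passage 2, and to 4399 to 7312 CPM and 1314 to 4748 CPM at day 90, and 0 of the 4 were called. The 4 luminal markers (Krt7, Krt19, Wfdc2 and Elf5) summed to 390 to 566 CPM and 736 to 1396 CPM at day 14, and to 749 to 933 CPM and 1385 to 1685 CPM at day 90. Of the 3 tested luminal markers 1 was called higher, Wfdc2.

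The same lists moved with irradiation. Of all genes 11.0% were called for mean irradiation and 11.7% for passage. Averaged over the 4 strata, 3 of 4 basal markers fell, Trp63 (log2 fold change -0.99), Krt15 (-2.03) and Krt5 (-0.78), and 2 of 3 tested luminal markers rose, Krt7 (0.98) and Wfdc2 (0.78). The keratins Krt8 (1.12) and Krt18 (0.95) rose as well. With passage these markers went the other way: Trp63 (0.64) and Krt15 (1.43) rose, and Krt7 (-1.44), Wfdc2 (-0.61), Krt8 (-1.35) and Krt18 (-1.18) fell. Cox5a, at 0.33 and -0.38 in these comparisons, had the signs of the luminal markers in both, and their part in its values was not tested. These signs were common: of 85 members 56 were above 0 with irradiation and 62 below 0 with passage. Cox7a2l had the opposite signs in both comparisons.

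No interaction of irradiation with day or passage was called for a member. The test of IR by day gave 0 of 85 in passage 1 (0.0189% of all genes) and 0 of 85 in passage 2 (0.00947%), and the test of IR by passage gave 0 of 85 at day 14 and at day 90 (0.00% of all genes in both). At an unadjusted p under 0.05 there were 5, 0, 2 and 2 members, beside 8.15%, 5.13%, 6.90% and 3.86% of all genes, and DESeq2 called 0 in each. For Ndufa4, whose irradiation effect was 1.49 at day 90 in passage 1, the adjusted p of the IR by day interaction there was 0.561. A test for any difference over the 8 groups called 11 of 85 members, 12.9%, beside 15% of all genes. They were Atp5e, Ndufc2, Ndufa4, Ndufa10, Ndufb2, Cox5a, Ndufb10, Cox7b, Cox5b, Atp5b and Ndufa8. This count was 3 without replicate 3 of sham at day 90 in passage 2, 5 without replicate 2 of that group, and 6 or 7 without 1 of 9 other libraries: replicate 2 or 3 of IR at day 14 in passage 1, any sham library or replicate 1 of IR at day 14 in passage 2, replicate 3 of IR at day 90 in passage 1, or replicate 2 or 3 of IR at day 90 in passage 2.

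The partners of these genes that the name rule leaves out were followed by lists. Of all genes 4.79% were called for mean day, and 0.00947% and 3.91% for day in passages 1 and 2. For mean irradiation and passage the shares were 11.0% and 11.7%. Of the 13 subunits encoded in mitochondrial DNA 7 passed the filter. Averaged over the groups 4 of them fell from day 14 to day 90: mt-Co1 (log2 fold change -0.90, SE 0.12, adjusted p 0.000249), the catalytic subunit of complex IV, mt-Nd6 (-0.89), mt-Cytb (-0.56) and mt-Nd5 (-0.49), the last named after its value was seen. In passage 2 alone mt-Co1 (-1.16) and mt-Nd6 (-1.29) fell, and in passage 1 none of the 7 was called, with a median of -0.44. With irradiation mt-Cytb rose (0.46), and with passage mt-Nd6 (0.71) and mt-Co1 (0.35) rose. Reads from mitochondrial transcripts on opposite strands can be confused where the strand setting is not known, and mt-Nd6 lies on the strand opposite to its neighbours mt-Nd5 and mt-Cytb. Among 19 genes of complex III and the electron carriers outside the rule, such as Cyc1 and the cytochrome c gene, 0 were called for day, Sqor, which feeds electrons from sulfide, rose with irradiation (0.64), and Etfdh rose with passage (0.47). Of 39 tested assembly factors Coa5 (0.41) rose with irradiation and Timmdc1 (0.77) rose at day 90 in passage 2, and the median for that day comparison was 0.00, beside -0.28 for the members. Of 24 genes for protein import and cristae, 3 fell at day 90 in passage 2, Chchd3 (-0.38), Timm13 (-0.49) and Tomm7 (-0.46), with a list median of -0.14.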

How the data were processed

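RNA of 24 organoid samples was made into QuantSeq 3' libraries, per the labels' protocols. The authors deposited a table of raw counts per gene for each library, whose processing notes name bcl2fastq and GRCm39; the sources used here do not give the aligner, counter, annotation or strand setting. The 5 lines that name no gene held 11.9% to 26.7% of a library's reads and were left out. Symbols came from an annotation of GRCm38 (GENCODE M21), which matched 47224 of 47643 identifiers.

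Counts were fitted with edgeR 4.0.16 in R 4.3.3: TMM scaling, the filterByExpr filter, one mean per group over all 24 libraries and the quasi-likelihood F test, with Benjamini-Hochberg adjustment over 10563 genes. SEs were derived from the log2 fold change and F. The script was tested on simulated data. Members, lists and tests were chosen with earlier results of these data known. The genes named by rule were the 2 most abundant and 2 rarest members of each complex, isoform pairs, up to 8 members called per direction of a comparison (with none called, the 3 of lowest p), and up to 3 called genes of another list. Further members were named after their values were seen. Alternatives were DESeq2 1.42.0, other scalings and filters, a replicate block, the Gm42418 share as covariate and leaving out libraries. No 2 replicates agreed within sampling noise (chi-square per degree of freedom 2.20 to 29.5). One result of a related list is not reported here.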

Additional observations from a re-analysis of the deposited data

Results flagged for a closer look

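Ndufaf8, an assembly factor of complex I, had irradiation differences of opposite sign at the 2 days in passage 1. At day 14 it had 36.3, 29.0 and 28.6 CPM in sham and 38.3, 44.2 and 38.3 CPM in IR, so every IR library lay above every sham library. At day 90 it had 38.2, 47.7 and 41.2 CPM in sham and 36.3, 30.3 and 36.0 CPM in IR, so every IR library lay below. The gene was picked by a search of all tested members for such opposite separations. Of all genes, 8.83% had every IR library above every sham library at day 14 in passage 1. At day 90 in passage 1, 10.4% had every IR library below. The fitted irradiation effect at day 90 minus that at day 14 was -0.669 on the log2 scale (SE 0.34), and edgeR did not call this interaction (adjusted p 0.648).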

How the results depend on the processing

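No named log2 fold change changed sign under DESeq2, other scalings or filters, the replicate block or the Gm42418 covariate; 1 did otherwise: Atp5g2 with irradiation at day 14 in passage 1, -0.69, was 0.146 without the 3 libraries farthest from their groups and 0.145 without replicate 1 of sham there; the lowest value with 1 library left out was -1.63. Numbers of members called moved more, and the cause was not tested. The share of all genes called is given below for total counts and the replicate block only. The other counts cannot be read against it. DESeq2 gave 1 for irradiation at day 90 in passage 1 (0 in edgeR), 5 for mean irradiation (3) and 6 for passage (3). With no filter on low counts there were 2 and 1 for irradiation at day 90 in passages 1 and 2, 9 for mean irradiation, 6 for passage, 1 for the irradiation by day interaction in passage 1 and 18 for any difference (11). A fit to the compared groups alone gave 1 for irradiation at day 90 in passage 1 and 5 for day in passage 2 (14). With the Gm42418 share as covariate there were 0 for mean irradiation, 0 for passage, 3 for mean day (6), 1 for any difference and 6 for day in passage 2. With total counts there were 2 for mean day, 2 for any difference and 1 for day in passage 2, beside 13.3%, 19.3% and 9.86% of all genes. Leaving out the 3 farthest libraries leaves 1 IR library at day 14 in passage 2, so numbers called are not given for it. The members' median was then 0.02 for mean irradiation, -0.12 for mean day and -0.24 for day in passage 2. For all genes it was -0.01, 0.01 and 0.01. Leaving out 1 library gave 0 to 9 for irradiation at day 90 in passage 2, 0 to 11 for mean irradiation, 0 to 8 for passage, 3 to 12 for mean day, 3 to 16 for any difference, 3 to 16 for day in passage 2, and 0 for the other comparisons. Replicate numbers are those of the sample titles, and the names of some IR files of day 90 carry other numbers, which were not used. Whether equal numbers mark paired samples is not stated. Correlations of same-numbered libraries ran from -0.18 to 0.39, above 0.1 in 13 of 24 pairs. Libraries of different numbers were not compared, so these values cannot settle the pairing. With the replicate block there were 3 calls for mean irradiation (Ndufa8 higher, Uqcrh and Cox7a2l lower, with Cox5a at an adjusted p of 0.0555 in edgeR), 4 for passage, 6 for mean day, 11 for any difference and 16 for day in passage 2. The shares of all genes called in these comparisons were 11.6%, 12.3%, 4.87%, 15.6% and 4.37%. With 8868 to 32542 counts on all members per library, genes of a few CPM such as Atp5g2 and Sdhd had few counts, which limits the precision of their fold changes.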

Other observations

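Regulators of mitochondria and of pyruvate dehydrogenase were called in a few cases. Of all genes 11.0% were called for mean irradiation, 11.7% for passage and 4.79% for mean day. For irradiation at day 90 in passage 2 the share was 4.91%. Ppargc1a, a coactivator of mitochondrial biogenesis, rose with irradiation on average over the 4 strata (log2 fold change 1.68, SE 0.33, adjusted p 0.00264) and at day 90 in passage 2 (2.55, SE 0.67, adjusted p 0.0269), and fell with passage (-1.56). Ppargc1b, its relative, fell with irradiation (-0.65), and Sp1 fell with day (-0.27). The other 13 of 16 tested regulators were not called in these comparisons. In the list of the citric acid cycle and pyruvate dehydrogenase, Pdk1, a kinase that restrains pyruvate dehydrogenase, fell with irradiation (-0.67) and rose with passage (0.52). Pdk4, another such kinase, fell with passage (-1.45).

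Of 17 glycolysis genes 4 fell with irradiation and none rose, beside 4.96% of all genes called lower and 6.09% higher. They were Pfkp (-0.63), the lactate exporter Slc16a3 (-1.46), the glucose transporter Slc2a1 (-0.35) and Gpi1 (-0.32), the last named after its value was seen. With passage Slc16a3 (1.62) and Slc2a1 (0.45) rose, beside 5.26% of all genes called higher and 6.42% lower. A list of carriers and porins, which also held the creatine kinase Ckmt1, had 9 tested genes. Of these Vdac2 rose (0.38) and Ckmt1 (-0.71) and Ucp2 (-0.39) fell with irradiation. Slc25a4, the exchanger of ADP and ATP, fell with passage (-0.29). Interferon-response genes fell with irradiation in 17 of 24 cases and rose with passage in 20 of 24, among them Bst2 (-1.74 and 1.75). Between passages and with irradiation the respiratory chain members had a median log2 fold change of -0.09 and 0.05.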
